A study of Mus musculus with 16 samples.

Results

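The 10 genes described here encode components of the basement membrane or proteins that bind it: Col4a1, Col4a2, Col4a5, Nid1, Nid2, Lama4, Lamb1, Lamc1, Hspg2 and Sparc. They were taken by platform gene symbol with all of their probe sets, which gave 19 of the 22690 probe sets on the array and 10 of the 12393 genes with a symbol of their own. All 19 probe sets exceeded log2 4 on at least 2 of the 16 arrays, a filter that left 8777 genes.

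RNA came from 3583T3 and 3151T4, a pair of mouse lines of small cell lung cancer, with 2 arrays in each of 8 groups. In each line the groups were untransfected control cells, cells with the retroviral vector MSCV-Nfib-PGK-Neo (Nfib, FLAG-tagged, G418), cells with MSCV-L-myc-PGK-Puro (Mycl1, puromycin) and cells with both vectors (Nfib+Mycl1). The control cells were untransfected, with no empty-vector group, so a vector, its resistance gene and its selection cannot be told apart from the transgene in a comparison with control. Whether the stable cells were pools or single clones is not given in the sources used here. The labels do not say whether the 2 arrays of a group come from different cultures. The p-values therefore reflect the spread between arrays alone, and that spread may be technical.

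The labels were checked against marker genes first. Chga, Chgb and Syp, which define neuroendocrine cells, lay near the floor of the signal in all 8 groups, with group means between 2.30 and 3.07 log2, whereas Ncam1 was 11.70 to 12.33, Uchl1 8.70 to 11.20 and Eno2 6.50 to 8.59. Ddc, another gene of the neuroendocrine list, read 7.65 to 10.70 in the groups of 3151T4 and 1.59 to 1.88 in those of 3583T3. The array labelled 3583T3 Nfib replicate 2 read 10.22 at the Mycl probe set that separated the vectors, and the array labelled 3583T3 Nfib+Mycl1 replicate 2 read 2.67. The other Nfib arrays read 2.12 to 2.55 there and the other Nfib+Mycl1 arrays 9.99 to 11.05, so these 2 arrays went against their labels. At none of the 4 Nfib probe sets did both arrays of an Nfib or Nfib+Mycl1 group lie above both control arrays of their line. The brightest of them read 10.48 and 10.76 in 3151T4 control cells and 10.40 and 9.82 with Nfib, so the Nfib labels could not be checked by a rise of this gene. Whether these probe sets cover the transgene is not given in the sources used here. One Mycn probe set read 12.19 to 13.26 on all 12 arrays with a vector and 2.03 to 2.56 on the control arrays, and the other two Mycn probe sets read 2.81 to 5.39 on all 16 arrays. Of the 16 arrays, 12 correlated best with the other array of their own group, and the exceptions were the Nfib and Nfib+Mycl1 arrays of 3583T3. There Nfib replicate 1 correlated best with Nfib+Mycl1 replicate 2, and Nfib replicate 2 with Nfib+Mycl1 replicate 1. Whether the labels of the 2 arrays that went against them were exchanged was not tested. Results are given by label, and again without these 2 arrays (the doubted arrays) where that changes a call printed here.

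Macrophage genes separated the control cells from all others. The mean of 10 macrophage genes was 6.39 to 8.40 log2 on the control arrays and 2.37 to 3.00 on all arrays with a vector, and C1qb read 11.21 and 9.35 in the control groups of 3583T3 and 3151T4 and at most 3.15 in the others. Every comparison with control therefore also sets cells with these transcripts against cells at or near the floor, and their part in the results was not tested.

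A basement membrane is a thin sheet of matrix on which epithelial cells sit and which surrounds vessels, muscle and nerve. Laminin trimers of an alpha, a beta and a gamma chain assemble at the cell surface, collagen IV trimers form a second, covalently linked network, and nidogens and the heparan sulfate proteoglycan perlecan join the networks. SPARC is a secreted, calcium-binding glycoprotein that binds collagens. In the lung these sheets lie under the airway and alveolar epithelium.

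Promoter windows from RefSeq (build GRCm38.p6, 250 bases before the annotated start and 50 from it) were found for 7 of the 10 genes. Nid2 (chr14:19751257-19811787), Lama4 (chr10:38965515-39110188) and Lamc1 had no window. Col4a1 and Col4a2 are transcribed in opposite directions from starts that lie 21 bases apart on chromosome 8 in this table, and their windows share 78 bases. The start used for Col4a1 (11312826) lies inside its gene span, which ends at 11312889. That of Col4a2 (11312805) is where its span begins, so the spacing depends on the starts used. Both windows are printed because the signals of these genes ran close together over the groups, and Nid1 is printed because its signal ran close to that of Col4a1. The Col4a1 window is chr8:11312777-11313076 (minus strand), the Col4a2 window chr8:11312555-11312854 (plus strand) and the Nid1 window chr13:13437352-13437651 (plus strand). Capitals mark TTGGC on either strand (GCCAA when it lies on the other strand), the core that nuclear factor I proteins recognise.
Col4a1: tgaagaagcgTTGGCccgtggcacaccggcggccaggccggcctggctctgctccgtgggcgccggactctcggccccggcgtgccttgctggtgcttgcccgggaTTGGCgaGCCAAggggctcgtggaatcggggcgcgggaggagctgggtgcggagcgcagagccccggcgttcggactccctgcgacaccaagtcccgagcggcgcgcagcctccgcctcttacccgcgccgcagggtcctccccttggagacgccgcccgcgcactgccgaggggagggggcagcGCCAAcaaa
Col4a2: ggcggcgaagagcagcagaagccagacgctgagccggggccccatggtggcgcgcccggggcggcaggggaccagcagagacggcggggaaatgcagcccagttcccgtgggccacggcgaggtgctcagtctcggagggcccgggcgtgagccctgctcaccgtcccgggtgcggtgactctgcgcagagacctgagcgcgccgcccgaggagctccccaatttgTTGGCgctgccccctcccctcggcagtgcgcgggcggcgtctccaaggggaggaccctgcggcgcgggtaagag
Nid1: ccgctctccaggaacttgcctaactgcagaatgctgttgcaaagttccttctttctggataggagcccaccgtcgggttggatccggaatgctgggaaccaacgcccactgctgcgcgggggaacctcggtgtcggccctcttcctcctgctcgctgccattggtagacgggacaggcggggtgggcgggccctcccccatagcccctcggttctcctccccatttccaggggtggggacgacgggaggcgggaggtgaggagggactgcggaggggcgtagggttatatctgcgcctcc

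TTGGC occurred 4 times in the Col4a1 window, 1 time in the Col4a2 window and 0 times in the Nid1 window. The Col4a2 match lies in the shared bases and is the last Col4a1 match on the other strand, so 1 site is counted in both windows. TTGGC was in 5 of the 7 windows (Hspg2, Col4a1, Col4a2, Lamb1 and Col4a5) and in 46.7% of the 32851 windows of all genes. The full palindrome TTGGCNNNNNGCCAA was in 0 of the 7 and in 0.0365% of all windows. CACGTG, the E-box bound by MYC family dimers, was in 0 of the 7 and in 7.15% of all windows. CCAAT overlapped a TTGGC in the Col4a1 and Col4a5 windows. Both strands were searched, a match describes letters and not a bound site, and no match says only that the letters are not in that window.

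The lines differed in these genes before any vector was added. In control cells 3 of the 10 genes were higher in 3151T4 than in 3583T3 and 3 were lower, against 21.1% and 18.8% of all 8777 genes. A call here and below is a Benjamini-Hochberg adjusted p under 0.05 from limma. The largest of these differences was that of Nid2, nidogen 2, which read 3.85 and 3.74 log2 on the control arrays of 3583T3 and 10.40 and 10.48 on those of 3151T4. The difference was 6.64 ± 0.43 log2 (SE, adjusted p = 4.19e-08). It is a lower bound, since the 3583T3 values lay near the floor.

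Lama4, a laminin alpha chain known from vessel walls and muscle, was also higher in 3151T4 control cells, by 1.19 ± 0.25 log2 (adjusted p = 0.00157). Lamc1, the gamma chain of most laminins, was higher by 0.89 ± 0.15 (adjusted p = 0.000391). Lower in 3151T4 were Col4a1 and Col4a2, the chains of the most widespread collagen IV trimer, with differences of -1.68 ± 0.19 and -1.07 ± 0.17 (adjusted p = 9.2e-06 and 0.000192). Nid1, nidogen 1, differed by -1.39 ± 0.15 (adjusted p = 7.99e-06), opposite to Nid2. These 6 calls held without the 2 arrays that went against their labels and when each of the 16 arrays was left out in turn. In bulk RNA, fewer cells of a type and less RNA per cell cannot be told apart.

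**Figure D1:**
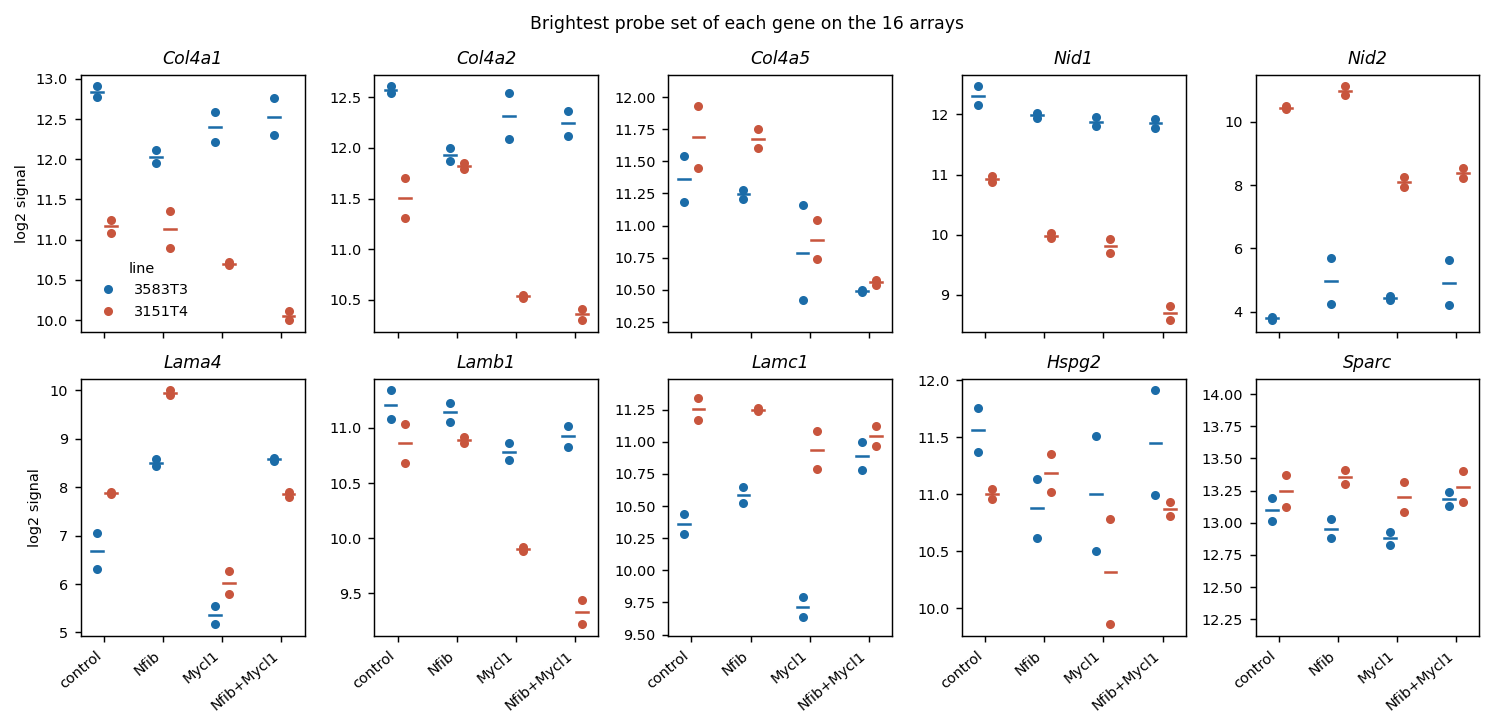
Log2 signal of the brightest probe set of each gene on the 16 arrays, by vector (horizontal axis) and line (colour), with a bar at each group mean of 2 arrays; the vertical axes differ between genes. Nid2 lies between 3.74 and 5.70 in 3583T3 and between 7.95 and 11.12 in 3151T4, and Lama4 is above control with Nfib and below it with Mycl1 in both lines.

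Among the laminin chains, Lama4 went up with Nfib and down with Mycl1. In 3583T3 it read 6.32 and 7.06 in control cells, 8.59 and 8.43 with Nfib, 5.55 and 5.17 with Mycl1, and 8.54 and 8.61 with both vectors. The 3151T4 arrays read 7.91 and 7.87 in control cells, 10.00 and 9.90 with Nfib, 5.79 and 6.27 with Mycl1, and 7.79 and 7.91 with both. Within each line both Nfib arrays lay above the control arrays and both Mycl1 arrays below them, with no overlap.

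Over both lines Lama4 rose with Nfib by 1.94 ± 0.34 log2 (3.84-fold, adjusted p = 0.00238, 4 arrays against 4). It was the 1 gene of the 10 called higher with Nfib, against 4.96% of all genes, and 0 were called lower by limma, against 4.80% (1 at an unadjusted p under 0.05). Inside the lines the rise was 1.82 ± 0.25 in 3583T3 and 2.06 ± 0.25 in 3151T4 (adjusted p = 0.000235 and 5.72e-05). The difference between these responses was 0.24 ± 0.35, with a 95% interval from -0.50 to 0.99. These rises held when each array was left out in turn.

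With Mycl1 alone Lama4 fell by 1.60 ± 0.34 over both lines (3.03-fold, adjusted p = 0.0161). Without 3151T4 control replicate 4 the change was -1.50 and did not pass. The change was -1.34 ± 0.25 in 3583T3 (adjusted p = 0.00779) and -1.86 ± 0.25 in 3151T4 (adjusted p = 0.000451). The 3583T3 call was lost without 3583T3 control replicate 2 (-0.97) or 3583T3 Mycl1 replicate 2 (-1.15). Over both lines the dimmer second Lama4 probe set changed by -1.01 ± 0.35 with Mycl1 and was not called (adjusted p = 0.0756). Without the 2 doubted arrays it was -1.01 ± 0.33, which passed narrowly (adjusted p = 0.0499).

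With both vectors the Lama4 signal stood 2.52 ± 0.34 above that with Mycl1 alone (5.73-fold, adjusted p = 0.00122). It was the 1 gene called higher in that comparison, against 1.60% of all genes, and 0 were called lower by limma, against 1.75% (1 at an unadjusted p under 0.05). The count was 2 without 3151T4 Mycl1 replicate 4 or 3151T4 Nfib+Mycl1 replicate 4. Against control the outcome with both vectors differed between the lines. Lama4 rose by 1.88 ± 0.25 in 3583T3 (adjusted p = 0.00018), and the value in 3151T4 was -0.04 ± 0.25 (adjusted p = 0.923). The responses differed by -1.92 ± 0.35 (adjusted p = 0.00449), and by -1.88 without the 2 doubted arrays (adjusted p = 0.00935). The dimmer second Lama4 probe set gave -1.69 ± 0.38 (adjusted p = 0.019), a call that ended without 3583T3 control replicate 1, either 3151T4 control array or 3151T4 Nfib+Mycl1 replicate 3 (-1.72 to -1.49).

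The mean of the fibroblast markers moved with Nfib too. The mean log2 signal of 10 fibroblast genes was 7.22 to 7.67 in 3583T3 control cells, 9.15 to 9.43 with Nfib, 7.72 to 7.89 with Mycl1 and 9.06 to 9.30 with both vectors. In 3151T4 it was 8.85 to 8.87, 10.51 to 10.62, 7.78 to 7.83 and 8.81 to 9.15 in the same order. Like Lama4, the mean was above control with Nfib in both lines and below it with Mycl1 in 3151T4, but with Mycl1 in 3583T3 it was not below. With Nfib 6 of the 10 genes were called higher in 3583T3 and 4 in 3151T4, against 4.80% and 7.55% of all genes. In both lines 0 were called lower, against 4.60% and 5.65%. Col1a1 had means of 12.07 and 12.05 in 3583T3 control and Nfib cells and 12.25 and 12.16 in those of 3151T4. Col1a2 went from 10.18 to 11.43 in 3583T3 but from 11.67 to 11.08 in 3151T4. Between 7 and 9 of the 10 genes were above log2 4 on both arrays of a group, and the part of these cells in the Lama4 changes was not tested.

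Lamb1, the beta chain of the common laminins, fell in 3151T4 whenever Mycl1 was present. It read 10.68 and 11.04 in 3151T4 control cells, 10.92 and 10.86 with Nfib, 9.92 and 9.88 with Mycl1, and 9.22 and 9.44 with both vectors. The 3583T3 arrays spanned 10.71 to 11.34. In 3151T4 the changes were 0.03 ± 0.16 with Nfib, -0.96 ± 0.16 with Mycl1 and -1.53 ± 0.16 with both (adjusted p = 0.945, 0.00212 and 3.53e-05). In 3583T3 they were -0.07, -0.43 and -0.29 (SE 0.16 each), none of which passed. The responses to both vectors differed between the lines by -1.24 ± 0.23 (adjusted p = 0.00541), and the third Lamb1 probe set gave -1.34 for this difference. The second gave -1.07 (adjusted p = 0.0464), a call that ended without the 2 doubted arrays (-1.01, adjusted p = 0.0811). Over both lines the change of Lamb1 with both vectors against control was -0.91 ± 0.22 (adjusted p = 0.00811). With Mycl1 alone the third probe set was lower in both lines. Its mean went from 8.07 to 7.30 in 3583T3 and from 6.99 to 6.47 in 3151T4. Without the 2 doubted arrays these changes were -0.76 ± 0.19 and -0.52 ± 0.19, so at this probe set the fall with Mycl1 was not particular to 3151T4.

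The brightest probe set of Lamc1 did not pass in any comparison with control inside 3151T4, where all 8 arrays lay between 10.79 and 11.34. In 3583T3 it read 10.44 and 10.28 in control cells, 10.65 and 10.52 with Nfib, 9.64 and 9.79 with Mycl1, and a mean of 10.89 with both vectors (2 arrays, the lower at 10.78). The Mycl1 arrays were thus the lowest of that line and the Nfib+Mycl1 arrays the highest. The changes from control were -0.64 ± 0.15 with Mycl1 (adjusted p = 0.042) and 0.53 ± 0.15 with both vectors (adjusted p = 0.0393). Both calls were weak. The first ended without any single control or Mycl1 array of 3583T3, or control, Nfib or Nfib+Mycl1 array of 3151T4, at -0.72 to -0.56. The second ended without any single control or Nfib+Mycl1 array of 3583T3, or Nfib or Nfib+Mycl1 array of 3151T4, at 0.42 to 0.64, and was 0.42 without the 2 doubted arrays (adjusted p = 0.159). The second, dimmer Lamc1 probe set fell with Mycl1 over both lines by 0.81 ± 0.22 (adjusted p = 0.0328), a call that ended without any single control or Mycl1 array (-0.89 to -0.66). Inside 3151T4 it gave -0.79 with Mycl1 (adjusted p = 0.0602), which passed without the 2 doubted arrays (adjusted p = 0.0406).

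The collagen IV chains Col4a1 and Col4a2, which lie side by side in the genome, followed each other. Over the 8 group means their signals had a Pearson r of 0.94, a description over groups that share 2 lines. Col4a1 read 12.77 and 12.91 in 3583T3 control cells, 12.11 and 11.96 with Nfib, 12.59 and 12.21 with Mycl1, and 12.30 and 12.76 with both. In 3151T4 it read 11.25 and 11.08 in control cells, 11.36 and 10.90 with Nfib, 10.72 and 10.68 with Mycl1, and 10.00 and 10.11 with both. All 8 arrays of 3583T3 lay above all 8 of 3151T4, and within 3151T4 the arrays with both vectors were the lowest.

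Col4a2 in 3151T4 read 11.31 and 11.70 in control cells, 11.85 and 11.79 with Nfib, 10.52 and 10.55 with Mycl1, and 10.30 and 10.41 with both vectors. The 4 arrays with Mycl1 lay below the 4 without it. The changes of Col4a2 there were -0.97 ± 0.17 with Mycl1 and -1.15 ± 0.17 with both (adjusted p = 0.00234 and 0.000429). Col4a1 changed by -1.11 ± 0.19 with both vectors (adjusted p = 0.00102), while its change with Mycl1 alone was -0.47 ± 0.19 (adjusted p = 0.105). The second Col4a1 probe set gave -2.10 ± 0.27 with both vectors in 3151T4, a larger fall than that of the brighter one. In 3583T3 the mean of this second probe set went from 11.95 in control cells to 10.82 with Nfib and 10.91 with both vectors. At this probe set the fall with both vectors was thus not particular to 3151T4.

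With Nfib alone the direction of Col4a2 was not the same in the lines. In 3583T3, where the control arrays read 12.54 and 12.61 and the Nfib arrays 12.00 and 11.87, the change was -0.64 ± 0.17 (adjusted p = 0.0297), and in 3151T4 it was 0.32 ± 0.17 (adjusted p = 0.289). The responses differed by 0.96 ± 0.24 (adjusted p = 0.0287). This was the 1 gene of the 10 called higher for a difference in the Nfib response, against 3.90% of all genes, with 0 called lower by limma, against 2.59% (1 at an unadjusted p under 0.05). Col4a1 changed by -0.81 ± 0.19 with Nfib in 3583T3 (adjusted p = 0.0143). All of these 3 calls rest on the array labelled 3583T3 Nfib replicate 2. Without it the values were -0.58 for Col4a2, 0.89 for the difference and -0.73 for Col4a1, and none passed. They also ended without 3583T3 control replicate 1 (-0.67, 0.99 and -0.88) or control replicate 2 (-0.61, 0.92 and -0.74). The difference in response ended as well without 3151T4 control replicate 3 (0.76), Nfib replicate 3 (0.93) or Nfib replicate 4 (0.99).

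Col4a5, an X-linked collagen IV chain, was lower over both lines with Mycl1 and with both vectors, by label. In 3583T3 it read 11.54 and 11.18 in control cells, 11.28 and 11.21 with Nfib, 10.42 and 11.16 with Mycl1, and 10.50 and 10.48 with both vectors. In 3151T4 it read 11.45 and 11.93, 11.60 and 11.75, 11.04 and 10.74, and 10.58 and 10.54 in the same order. By label the 4 Nfib+Mycl1 arrays lay below all control arrays and all Nfib arrays. In 3583T3 this did not follow the Mycl signal. The Nfib+Mycl1 array at 10.48 lacked that signal, and the Nfib array at 11.21 carried it. Inside 3583T3 the change with Mycl1 alone was not called at the brightest probe set. Over both lines Col4a5 fell with both vectors (95% interval of the change -1.33 to -0.67, adjusted p = 0.000937), a call that held when each array was left out in turn. With Mycl1 alone it was -0.69 ± 0.16 (adjusted p = 0.0216). That call ended without 3583T3 control replicate 1 (-0.64), 3583T3 Mycl1 replicate 1 (-0.57), 3151T4 control replicate 4 (-0.58) or 3151T4 Mycl1 replicate 4 (-0.61). The second, dimmer Col4a5 probe set gave -0.92 ± 0.22 with Mycl1 (adjusted p = 0.0228, lost at -1.01 to -0.80 without 3583T3 control replicate 1, 3583T3 Mycl1 replicate 1, 3151T4 control replicate 3 or 3151T4 Mycl1 replicate 4). With both vectors it gave -0.55 ± 0.22 (adjusted p = 0.0662), and -0.74 without the 2 doubted arrays, which passed (adjusted p = 0.00411).

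Of the nidogens, Nid1 fell in 3151T4 with Nfib, with Mycl1 and with both vectors. It read 10.98 and 10.87 in control cells of that line, 9.95 and 10.02 with Nfib, 9.92 and 9.70 with Mycl1, and 8.58 and 8.82 with both vectors. All 6 arrays with a vector lay below the control arrays, and the arrays with both vectors lay below the others. The changes were -0.94 ± 0.15, -1.11 ± 0.15 and -2.23 ± 0.15 (adjusted p = 0.000839, 0.000553 and 5.31e-07). These comparisons share the 2 control arrays.

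In 3583T3 the brightest Nid1 probe set read 12.16 and 12.47 in control cells and between 11.77 and 12.03 on the 6 arrays with a vector. The changes were -0.33, -0.43 and -0.47 with Nfib, Mycl1 and both (SE 0.15), and none passed. The responses to both vectors differed between the lines by -1.76 ± 0.22 (adjusted p = 0.000234). For this difference the second probe set was not called, and gave -0.66 without the 2 doubted arrays. Its 3151T4 arrays with a vector read 3.58 to 4.29, near the floor, where a fall is understated. The second Nid1 probe set disagreed in 3583T3. It read 8.76 and 8.79 in control cells and 6.86 to 7.93 with a vector, and its changes of -1.30, -1.55 and -0.96 passed (adjusted p = 0.00537, 0.00382 and 0.03). The first of these was -1.05 and did not pass without the array labelled 3583T3 Nfib replicate 2, the second ended without 3583T3 Mycl1 replicate 1 (-1.18) or control replicate 2 (-1.53), and the third without control replicate 1 (-0.98), control replicate 2 (-0.94) or Nfib+Mycl1 replicate 1 (-0.84). Over both lines that probe set fell with Nfib by 1.39 ± 0.22 (adjusted p = 0.00112), where the brightest one gave -0.63 ± 0.25 (adjusted p = 0.138). Which of the probe sets is nearer to the transcript was not tested.

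Nid2 had its own pattern. In 3151T4 it read 10.40 and 10.48 in control cells, 11.12 and 10.83 with Nfib, 7.95 and 8.24 with Mycl1, and 8.55 and 8.22 with both vectors. The highest of the 4 arrays with Mycl1, at 8.55, lay below the lowest control array, at 10.40. The changes were -2.34 ± 0.43 with Mycl1 and -2.06 ± 0.43 with both (adjusted p = 0.00339 and 0.00416), and 0.54 ± 0.43 with Nfib (adjusted p = 0.524).

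In 3583T3 the Nid2 signal stayed near the floor, where changes are understated: 3.85 and 3.74 in control cells, 4.25 and 5.70 with Nfib, 4.37 and 4.51 with Mycl1, and 5.62 and 4.22 with both. The 2 higher readings were 5.70 on the array labelled Nfib replicate 2 and 5.62 on the array labelled Nfib+Mycl1 replicate 1. Both arrays carried the Mycl signal. By label the change with both vectors was 1.12 ± 0.43 (adjusted p = 0.106). Without the 2 doubted arrays it was 1.82, which rests on 1 Nfib+Mycl1 array of this line. The response to both vectors differed between the lines by -3.18 ± 0.61 (adjusted p = 0.00652). The response to Mycl1 differed by -2.99 ± 0.61 (adjusted p = 0.025), a call that ended without any single control or Mycl1 array of either line (-3.13 to -2.84). Without the 2 doubted arrays the difference was again -2.99. Its SE was then 0.28, since the readings of 5.70 and 4.22 no longer entered the spread. The call ended with the replicate block (adjusted p = 0.0683). The 3583T3 control mean of 3.80 lay near the floor, so a fall in that line would be understated.

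**Figure D2:**
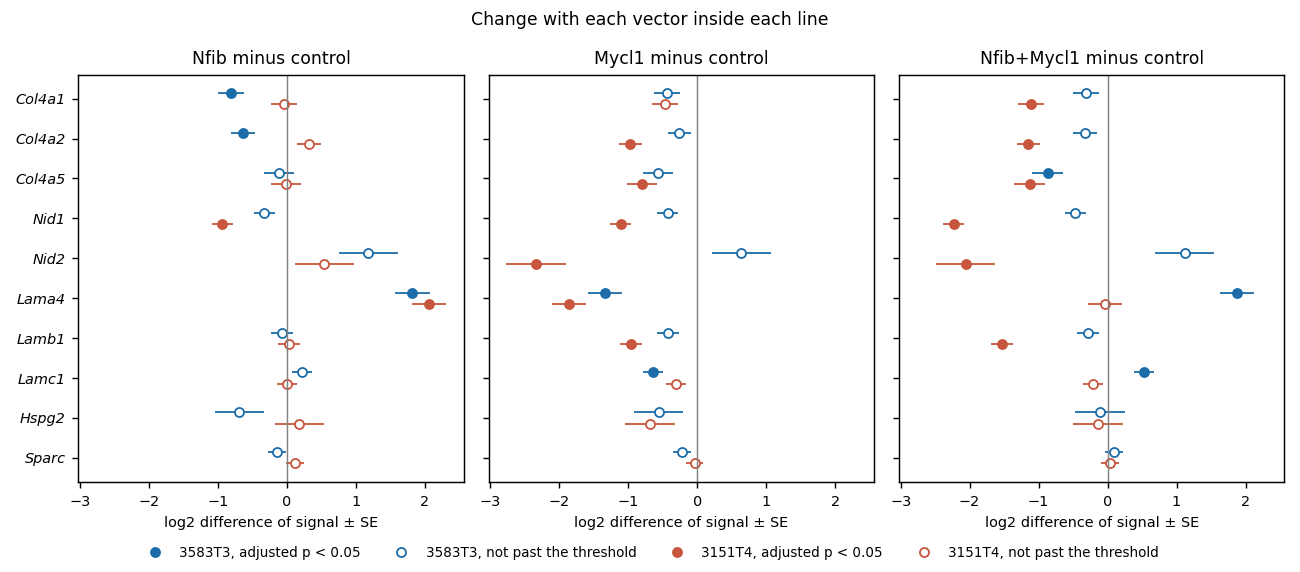
Log2 difference from control cells of the same line for the brightest probe set of each gene with Nfib, Mycl1 or both vectors; bars are ± 1 SE, and filled points passed the adjusted threshold. In 3151T4 with both vectors Nid1 lies at -2.23 and Lama4 at -0.04, whereas in 3583T3 they lie at -0.47 and 1.88.

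Hspg2 encodes perlecan. Its brightest probe set read from 10.50 to 11.91 in 3583T3 and from 9.86 to 11.35 in 3151T4, and arrays of the same group lay far apart. The 3583T3 Mycl1 arrays read 11.51 and 10.50, and the 3151T4 Mycl1 arrays 9.86 and 10.78. With all arrays no comparison passed for either probe set. Without the 2 doubted arrays the second probe set passed with Mycl1 over both lines (-0.85, adjusted p = 0.0136) and in 3151T4 (-1.01, adjusted p = 0.023). At the brightest probe set the 95% interval of the change ran from -0.85 to 0.34 with Nfib, from -1.22 to -0.03 with Mycl1 and from -0.72 to 0.47 with both vectors.

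Sparc passed in no comparison at its brightest probe set. All 16 values lay between 12.83 and 13.41, and the groups with a vector overlapped the control group of their line except for Mycl1 in 3583T3, where 12.93 and 12.83 lay below 13.01 and 13.19. The lowest value was on a 3583T3 Mycl1 array and the highest on a 3151T4 Nfib array. The 95% intervals of the change over both lines were -0.21 to 0.19 with Nfib, -0.33 to 0.07 with Mycl1 and -0.13 to 0.26 with both, so a change of the size seen for Lama4 lay outside all of them. The second Sparc probe set was higher in control cells of 3151T4 by 0.41 ± 0.14 (adjusted p = 0.0317), a call that ended without 3583T3 control replicate 1 (0.31) or 3151T4 control replicate 3 (0.27), and without the 2 doubted arrays (0.41, adjusted p = 0.0512).

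Over both lines, 0 of the 10 genes were called higher with Mycl1 alone by limma, against 6.35% of all genes (0 at an unadjusted p under 0.05), and 2 were called lower, against 4.55%. The median change of the 10 genes was -0.66, beside 0.03 for all genes, and all 10 changes lay below zero. At an unadjusted p under 0.05, 7 were lower. The count of 2 was 0 without 3151T4 control replicate 4, 1 without 3583T3 Mycl1 replicate 1 or 3151T4 Mycl1 replicate 4, and 4 without 3583T3 Nfib+Mycl1 replicate 2 or 3151T4 Nfib+Mycl1 replicate 3. Without the 2 doubted arrays it was 5, namely Lama4, Nid1, Lamb1, Col4a5 and Lamc1.

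With both vectors against control, 4 genes were called lower over both lines (Nid1, Col4a5, Lamb1 and Col4a1), against 14.5% of all genes, and 0 higher, against 16.1% (1 at an unadjusted p under 0.05). Nid1 had the largest fall, with -1.35 ± 0.25 (adjusted p = 0.00204). Col4a1 changed by -0.71 ± 0.23 (adjusted p = 0.0334), a call that ended without any single control array of either line or any single Nfib+Mycl1 array of 3151T4 (-0.74 to -0.55). The second Col4a1 probe set changed by -1.57 ± 0.34 (adjusted p = 0.00492). Col4a2 gave -0.74 ± 0.28 (adjusted p = 0.0553), or -0.89 without the doubted arrays, which passed (adjusted p = 0.0194), and Lama4 0.92 ± 0.34 (adjusted p = 0.0546). The median of the 10 genes was -0.59, beside 0.03 for all genes.

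Both vectors against Nfib alone gave 2 genes lower, against 7.71% of all genes, and 0 higher, against 8.57% (0 at an unadjusted p under 0.05). These were Col4a5, with -0.94 ± 0.16 (adjusted p = 0.0114), and Lamb1, with -0.89 ± 0.22 (adjusted p = 0.0198). Col4a5 lost the call without 3151T4 Nfib+Mycl1 replicate 3 (-0.91) or 3151T4 Nfib replicate 4 (-0.87), and Lamb1 without any single Nfib or Nfib+Mycl1 array of 3151T4 (-0.80 to -0.70). The count was 0 to 1 without one of those 4 arrays. It was 4 without either of the 2 arrays that went against their labels, 5 without 3583T3 Nfib+Mycl1 replicate 1 and 6 without both doubted arrays. The added genes were then Nid1, Col4a2, Lama4 and Col4a1.

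Inside the lines the counts separated further. In 3151T4, 6 genes fell with Mycl1 (Col4a2, Col4a5, Nid1, Nid2, Lama4 and Lamb1), against 8.28% of all genes, and 0 rose, against 7.52% (0 at an unadjusted p under 0.05). With both vectors 6 fell (Col4a1, Col4a2, Col4a5, Nid1, Nid2 and Lamb1), against 14.9%, and 0 rose, against 14.3% (0 at an unadjusted p under 0.05). With Nfib 1 rose, against 7.55%, and 1 fell, against 5.65%. The median changes of the 10 genes in this line were 0.07, -0.88 and -1.12 with Nfib, Mycl1 and both, where those of all genes were 0.03, 0.02 and 0.00. The Col4a5 fall with Mycl1 (-0.80) ended without 3151T4 Mycl1 replicate 3 (-0.95), Mycl1 replicate 4 (-0.65) or control replicate 4 (-0.55), and the other calls in this line held in each omission.

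In 3583T3, Nfib gave 1 gene higher, against 4.80% of all genes, and 2 lower, against 4.60%. Mycl1 gave 0 higher, against 0.843% (0 at an unadjusted p under 0.05), and 2 lower, against 1.99%. Both vectors gave 2 higher, against 6.62%, and 1 lower, against 6.12%. The 1 lower was Col4a5 (-0.87 ± 0.22, adjusted p = 0.0247), whose call ended without control replicate 1 (-0.69), Nfib+Mycl1 replicate 1 (-0.88) or Nfib+Mycl1 replicate 2 (-0.86), and without the doubted arrays (-0.86, adjusted p = 0.0579). The count with Nfib was 1 without either control array or without Nfib replicate 2, and the count with both vectors was 1 without control replicate 1 or Nfib+Mycl1 replicate 1. With Mycl1 the count was 0 without control replicate 2. Without Mycl1 replicate 2 both calls ended, Lama4 at an adjusted p of 0.0531 and Lamc1 at 0.0515, and the count of 1 came from another gene. Without any of the 8 other arrays that end the Lamc1 call, Lama4 was left. Only 1 gene of this line, Lama4, kept its calls with Nfib and with both vectors in every omission.

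Tests of the difference between lines called 4 of the 10 genes lower in 3151T4 for the response to both vectors (Nid1, Nid2, Lama4 and Lamb1), against 4.11% of all genes, and 0 higher, against 1.58% (0 at an unadjusted p under 0.05). For the response to Mycl1, 1 was called lower, against 1.12%, and 0 higher, against 0.695% (0 at an unadjusted p under 0.05). All 10 differences in the response to both vectors lay below zero, with a median of -0.81 beside 0.01 for all genes. Col4a1, Col4a2 and Lamc1 gave -0.80, -0.82 and -0.74 and did not pass (adjusted p = 0.117, 0.0703 and 0.0704).

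Pairs of these genes ran along the groups in different ways. Over the 8 group means Col4a1 had a Pearson r of 0.96 with Nid1, 0.83 with Lamb1, 0.02 with Col4a5 and -0.78 with Nid2. Nid2 had 0.80 with Lamc1, and Lamc1 0.90 with Sparc. The line difference enters all of these values, since 4 of the 8 means come from each line. Outside the 10 genes, the closest to Lama4 were Dram1 (r = 0.993), Nsun4 (0.977), Tmem176a (0.972) and Sgcd (0.964). The closest to Col4a1 were Phf13 (0.988), Rassf7 (0.984), C4bp (0.983) and Stap2 (0.983), and the closest to Sparc were BC004004 (0.956), Htra1 (0.955), Clstn1 (0.952) and Ufc1 (0.946). Each was picked as the highest of 8777 genes less the 10.

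Other basement membrane components were taken as a list of 27 genes, of which 18 passed the filter. With both vectors over both lines 11 of the 18 fell and 0 rose by limma (1 at an unadjusted p under 0.05), with a median change of -0.87, against 14.5% of all genes lower and 16.1% higher. The changes were -1.66 ± 0.23 for Tinagl1, a matricellular glycoprotein, -2.55 ± 0.60 for Npnt, a ligand of integrin alpha 8, and -1.06 ± 0.26 for Vwa1, a perlecan-binding matrix protein (adjusted p = 0.000467, 0.00699 and 0.00879). The count was 4 or 5 without 3151T4 Nfib+Mycl1 replicate 3 or 4, and 6 without 3151T4 control replicate 3 or 4 or 3583T3 Nfib+Mycl1 replicate 1. With Nfib alone 6 fell, against 4.80% of all genes, and 0 rose, against 4.96% (3 at an unadjusted p under 0.05), and the count of 6 was 3 without either control array of 3151T4. Up to 3 rose when 1 array was left out, with 3 without 3583T3 Nfib replicate 2 and 2 without 3583T3 Nfib replicate 1. With Mycl1 alone 3 fell, against 4.55%, and 0 rose, against 6.35% (1 at an unadjusted p under 0.05). That count was 1 without either Mycl1 or either control array of 3151T4 or 3583T3 control replicate 1. It was 6 without 3583T3 Nfib replicate 2, 7 without 3583T3 Nfib+Mycl1 replicate 2 and 8 without both of these.

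In 3151T4 alone Nfib gave 4 of the 18 higher and 7 lower, against 7.55% and 5.65% of all genes. Col15a1, a collagen of vascular and muscle basement membranes, rose by 3.47 ± 0.34 from a mean of 5.07 to 8.54, and Lama3, a laminin chain of epithelia, rose from the floor, at a mean of 2.27, to 4.22, so that its rise is known only as a lower bound (adjusted p = 8.94e-06 and 2.39e-05). Col7a1, the anchoring fibril collagen, fell by 2.24 ± 0.23 (adjusted p = 1.37e-05). With Mycl1 8 fell, against 8.28% of all genes, among them Matn2 (-2.67 ± 0.41), Lama1 (-1.63 ± 0.25) and Lamb3 (-1.39 ± 0.22), and 0 rose, against 7.52% (1 at an unadjusted p under 0.05). That count was 4 without 3151T4 Mycl1 replicate 3 and 5 without control replicate 4. With both vectors 12 fell, against 14.9%, among them Npnt (-4.34 ± 0.44), Lama1 (-2.09 ± 0.25) and Lamb3 (-2.05 ± 0.22), and 0 rose, against 14.3% (1 at an unadjusted p under 0.05).

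Of 14 measured enzymes and carriers that fold, modify and export collagen IV, 3 fell with both vectors over both lines, against 14.5% of all genes, and 0 rose, against 16.1% (1 at an unadjusted p under 0.05), with a median of -0.12. Serpinh1, the collagen chaperone HSP47, changed by -0.53 ± 0.14 (adjusted p = 0.0122). The count was 1 without 3151T4 Nfib+Mycl1 replicate 3, Nfib+Mycl1 replicate 4 or control replicate 4. In 3151T4 alone 6 fell with Mycl1 and 6 with both vectors, against 8.28% and 14.9% of all genes. With either 0 rose, against 7.52% and 14.3% (0 at an unadjusted p under 0.05). The Mycl1 count was smaller without any single control or Mycl1 array of 3151T4, and 3 with the replicate block. The count with both vectors was smaller without Nfib+Mycl1 replicate 3 or control replicate 3.

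Receptors for the basement membrane were measured by 13 genes. With both vectors 6 fell, against 14.5% of all genes, among them the syndecan Sdc1 (-0.53 ± 0.11), the glypican Gpc1 (-0.65 ± 0.14) and the collagen receptor kinase Ddr1 (-0.92 ± 0.20), with adjusted p of 0.00432, 0.00437 and 0.0054. The 1 that rose, against 16.1% of all genes, was Ddr2, the other collagen receptor kinase, by 1.18 ± 0.29 (adjusted p = 0.00856), and it was named after its value was seen. Among 11 proteases and inhibitors 3 fell, against 14.5%, and 0 rose, against 16.1% (1 at an unadjusted p under 0.05). They were Mmp14 (-0.78 ± 0.19), Mmp9 (-1.28 ± 0.32) and Bmp1 (-1.09 ± 0.28), with adjusted p of 0.00759, 0.00964 and 0.0115. In 3151T4 alone 5 of the 11 fell with Mycl1 and 4 with both vectors, against 8.28% and 14.9% of all genes. With either 0 rose, against 7.52% and 14.3% (0 at an unadjusted p under 0.05). The Mycl1 count was smaller without 3151T4 Mycl1 replicate 3 or control replicate 4.

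The family of Sparc was measured by 5 other genes. Smoc1 rose with Nfib by 2.74 ± 0.55 (adjusted p = 0.00552) and with both vectors by 2.10 ± 0.55 (adjusted p = 0.0116). With both vectors the changes of Smoc2 and Fstl1 were -1.59 ± 0.38 and -0.25 ± 0.07 (adjusted p = 0.00796 and 0.0132). With both vectors 3 fell and 1 rose in all, against 14.5% and 16.1% of all genes.

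**Figure D3:**
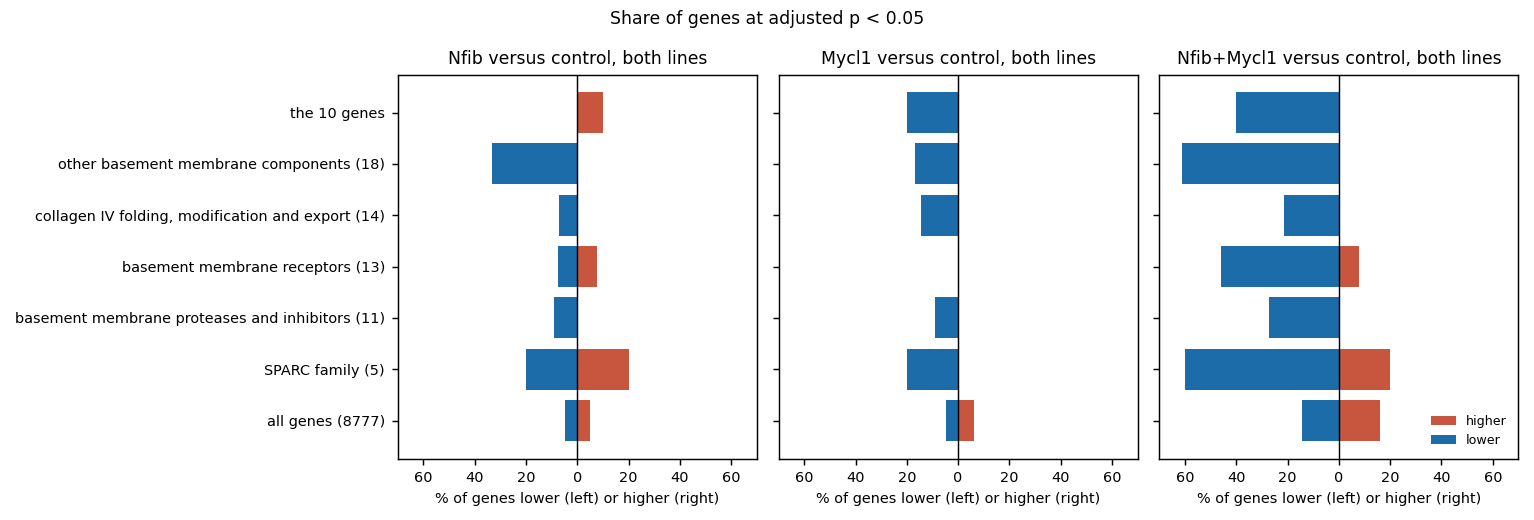
Share of genes (%) called lower (blue, to the left) or higher (red, to the right) over both lines, in a panel each for Nfib, Mycl1 and both vectors, for the 10 genes, the 5 lists (number measured in parentheses) and all 8777 genes. With both vectors 11 of 18 other basement membrane components were lower, beside 14.5% of all genes.

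Markers of further cell types moved with the vectors. The smooth muscle and pericyte mean was 8.40 to 8.60 and 7.59 to 7.78 in the control groups of 3583T3 and 3151T4, and 6.90 to 7.42 and 6.17 to 6.36 with Nfib. Of the endothelial markers, Pecam1, Cdh5, Tie1 and Vwf had group means of at most 2.73 in all 8 groups, whereas Flt1 ranged from 5.73 to 11.34. In 3583T3 the mean of Esam was 11.22 without a vector, 10.42 with Mycl1, 7.39 with Nfib and 7.35 with both, and in 3151T4 it was 2.36 to 2.53. Emcn had a mean of 4.52 with Mycl1 and 2.21 with both vectors in 3583T3, and its control mean there was above these. Of the lung epithelium markers, Sftpb, Sftpa1 and Scgb1a1 had group means of at most 2.58. Cdh1 ranged from 7.48 to 12.46, Krt18 from 8.04 to 13.32 and Krt19 from 7.81 to 12.33. Krt8 was 12.25 in 3583T3 control cells and 8.29 in those of 3151T4, where it was 6.45 with both vectors and lower still with Nfib. The part of other cell types in the changes of the 10 genes was not tested.

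**Figure D4:**
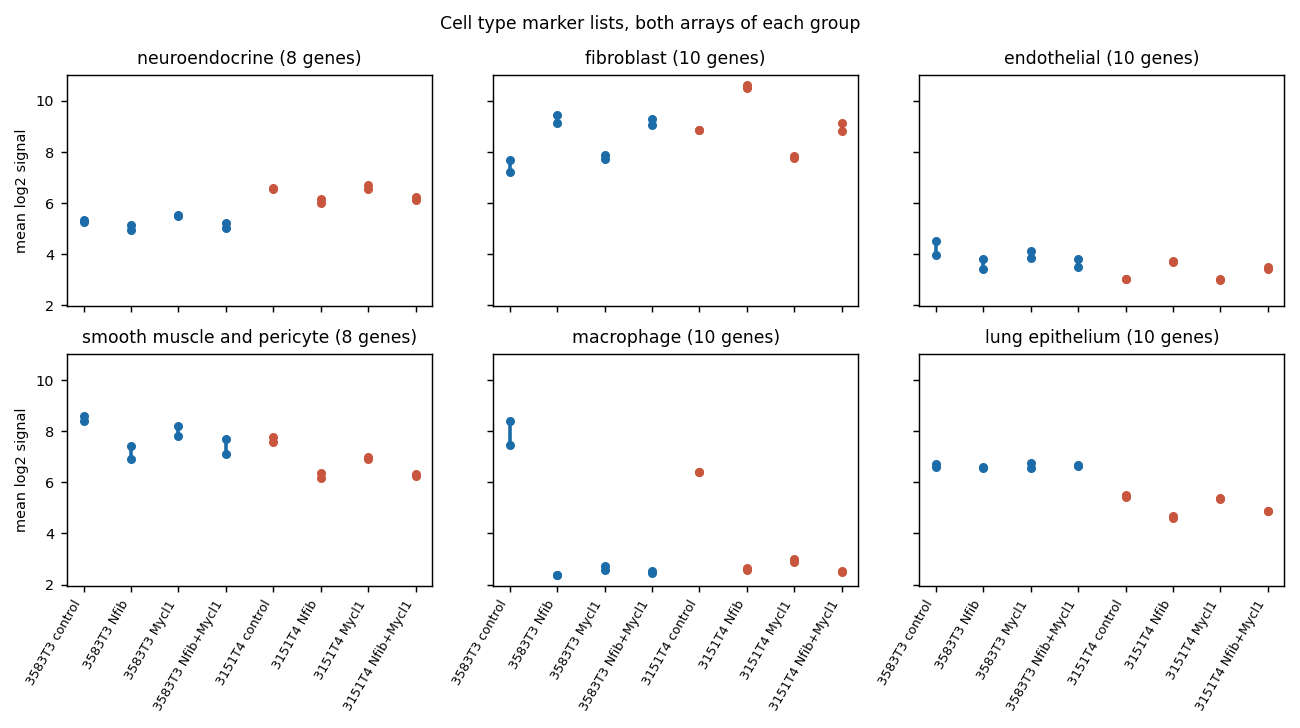
Mean log2 signal of 6 marker lists on both arrays of each group (points, joined by a line; blue for 3583T3 and red for 3151T4). The macrophage mean is above 6 on the control arrays only, and the fibroblast mean is higher with Nfib than in control cells in both lines.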

How the data were processed

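Expression was measured on 16 Affymetrix arrays from 100 ng of total RNA each. The deposited table holds 1 value per probe set and array. Per the submitters' processing notes the authors used R 2.11.0 and GCRMA 2.20.0, a method that corrects background by probe sequence, quantile-normalizes and summarises probes. The log2 scale was taken from the range of the deposited values. A floor near log2 2 understates the change of dim genes, and signals of different probe sets are not comparable as levels. No column was left out (0). Control probe sets (64) were dropped.

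Samples were grouped by their labels. With limma 3.58.1 (R 4.3.3, eBayes with a mean-variance trend) linear models were fitted to all 15799 probe sets above log2 4 on at least 2 arrays. Comparisons over both lines used vector plus line (11 residual degrees of freedom), and those within or between lines used 8 group means (8 residual degrees of freedom). Calls are Benjamini-Hochberg adjusted p under 0.05 over all of them. Shares of all genes use 1 probe set for each of 8777 genes. The number of arrays limits the precision.

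The brightest probe set stands for a gene, and others are set beside it. From each other list at most 3 called genes per comparison, those with the smallest p, are named, and for Col4a1, Lama4 and Sparc the 4 genes with the highest r. The members and lists were chosen with earlier results of these data known. Alternatives were no filter, a stricter filter (log2 6), 1 probe set per gene, centring on array medians, no trend, a replicate block, 8 means, averaged replicates and each array left out. The replicate numbers were checked as pairs: between groups of 1 line the differences between replicates correlated at -0.72 to 0.29. The -0.72 lay between the Nfib and Nfib+Mycl1 groups of 3583T3, which hold the doubted arrays, so it cannot tell about pairing. In 3151T4 the values were -0.07 to 0.29. The numbers were used as pairs only in the replicate block.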

Additional observations from a re-analysis of the deposited data

Results flagged for a closer look

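Responses to a vector that differed between the lines by a test of the difference itself drew attention for 5 of the 10 genes. Values are the change in 3151T4 minus the change in 3583T3 on the log2 scale. For the response to both vectors, Nid1 differed by -1.76 at its brightest probe set and Nid2 by -3.18. The second Nid1 probe set did not pass, and was -0.66 without the 2 arrays that went against their labels. Lama4 differed by -1.92 at its brightest probe set and -1.69 at the second, and Lamb1 by -1.24, -1.07 and -1.34 at its 3 probe sets. The second of these, -1.07, was -1.01 and did not pass without the 2 arrays that went against their labels (adjusted p = 0.0811). For Nid2 the response to Mycl1 alone differed by -2.99. The 3583T3 control mean of 3.80 lies near the floor, so a fall would be understated there. The call ended with the replicate block (adjusted p = 0.0683) and without any single control or Mycl1 array (8 arrays). The response of Col4a2 to Nfib differed by 0.96, and that call is lost without the 2 arrays that went against their labels.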

How the results depend on the processing

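Of 44 gene calls at the brightest probe sets, 30 held with no filter, centring, the replicate block, the 2 doubted arrays left out and each array left out in turn. With 1 array left out 14 were lost, and 0 reversed in any of these. The other alternatives were run for the counts of genes called only. Centring on array medians lost 1, and no filter lost 0. With a lone array left in a group, its spread is taken from the other groups.

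With 8 group means the counts of genes called were 3 with Nfib, 7 with Mycl1, 3 for both vectors against Mycl1 and 6 for both against Nfib. With averaged replicates they were 0, 0, 0 and 0, and 1 for both vectors against control. Without the 2 doubted arrays they were 5 with Mycl1, 6 for both against Nfib, 1 for Nfib in 3583T3 and 0 for the difference in the Nfib response. With 1 probe set per gene, both against Mycl1 gave 2. For Mycl1 in 3583T3 the count was 1 with the stricter filter and 1 with no trend, and for the difference in the Nfib response it was 0 with no trend.

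Whether the replicate numbers pair the arrays beyond the line was not settled by the check of them. With the replicate block 8 of the 44 calls were lost: the counts became 1 for Mycl1 and 1 for both vectors in 3583T3, and 0 and 0 for the differences in the Nfib and Mycl1 responses.

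With each array left out in turn, counts ranged from 0 to 4 with Mycl1, 1 to 2 for both against Mycl1 and 0 to 5 for both against Nfib. In 3583T3 they ranged from 1 to 4 with Nfib, 0 to 2 with Mycl1 and 1 to 4 with both, and from 0 to 1 for the differences in the Nfib and Mycl1 responses.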
